A study of Homo sapiens with 12 samples.

Results

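The transcripts described here come from 118 genes with numbered LINC symbols (the HGNC stem for long intergenic non-protein-coding RNA). They were measured in MDA-MB-231, a line of human breast cancer cells that lack hormone receptors and HER2. RefSeq now lists 3 of the 118 as protein-coding. A gene belonged to the set if its symbol was LINC followed by digits and its level, in CPM (counts scaled to the library total), averaged at least 1 over all 12 libraries. Of 610 such symbols in a table of 24641 genes, 118 met the rule, after 1 further symbol that the rule leaves out by name. Members were thus chosen by their mean level, so levels are given as a description. The rule used no comparison between groups, but its mean takes in the libraries of every group. For members that reach it through 1 group, comparisons with that group are in part fixed by the rule, as marked below.

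The cells carried either a control short hairpin (shControl) or a hairpin against RIPOR3 (shRIPOR3), and each line was kept in normoxia or in hypoxia, which was 1% O2 with 5% CO2 at 37 °C for 24 hours. Messenger RNA was sequenced in 4 groups of 3 libraries, normoxia shControl, normoxia shRIPOR3, hypoxia shControl and hypoxia shRIPOR3, with all cells grown in DMEM with 10% serum and 1% penicillin-streptomycin. A single RIPOR3 hairpin was used, whose sequence is not given in the sources used here, and neither is whether each line is 1 clone. The labels do not state that replicates were separate cultures, and p-values thus cover the spread among these libraries, which may be technical.

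Long intergenic noncoding RNAs are transcribed by RNA polymerase II, capped, spliced and often polyadenylated like mRNAs, but do not as a rule encode long proteins. Many are low in abundance and turned over in the nucleus by the RNA exosome and its adaptors. Some act in cis on a neighbouring gene, some are hosts of microRNAs, and in low oxygen the hypoxia-inducible factors are known to raise several lncRNAs along with protein-coding targets. Libraries of mRNA capture mainly the polyadenylated forms.

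Depth moved with oxygen, at 14750734 to 30032858 counts per library in normoxia and 31781324 to 52526813 counts in hypoxia. The 118 transcripts took 0.0574% to 0.0738% of a library's counts. RIPOR3, the targeted gene, had 7, 3 and 7 counts in normoxia shControl and 0, 0 and 1 in normoxia shRIPOR3. In hypoxia it had 33, 18 and 30 counts in shControl and 9, 3 and 11 in shRIPOR3, and it was lower with the RIPOR3 hairpin in normoxia (adjusted p = 0.0013) and in hypoxia (adjusted p = 1.69e-06). All 6 markers of MDA-MB-231 (VIM, CD44, MSN, SPARC, AXL and ZEB1) were present, with a summed level of 6100 to 8150 CPM. Of 8 luminal markers 3 stayed under 1 CPM in every group (ESR1, PGR and FOXA1), as did all 3 blood markers in the table, while the keratins KRT8 and KRT18 made up most of the luminal sum of 1150 to 1510 CPM.

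Most members lay clear of protein-coding genes on the annotation used here, while many overlapped other noncoding genes. Of 118 members 117 were placed on GRCh38 with GENCODE 29, and the bodies of 75 overlapped another annotated gene, 28 of them one on the same strand. A protein-coding gene was overlapped by 18 of the 117, 6 of them on its own strand, and 42 overlapped nothing. Reads in such overlaps cannot be assigned with certainty, because the strand setting of the authors' counting is not given in the sources used here. GENCODE classes 92 members as lincRNA and 3 as protein-coding. The median distance from a member to the nearest coding gene was 24861 bases, and 35 lay more than 100 kb away.

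RefSeq now lists 23 of the 117 members it holds under another symbol. LINC01578 is CHASERR, known as a cis regulator of the chromatin remodeler gene CHD2, LINC00704 is MANCR, a mitotically associated RNA, and LINC02407 is LNCOG. RefSeq lists LINC01293 under LINC01291, which lies 1840 bases from it on the same strand of chromosome 2. Their values below may therefore be 2 measurements of 1 transcription unit. Sequence shared with other genes was measured as the share of a member's 31-base words that also occur, on either strand, in GENCODE transcripts of genes elsewhere. The median was 2.97% of words over 117 members, 26 members shared none, and 5 shared over 50%: LINC01123 with 95.2%, LINC01106 with 92.6%, LINC00623 with 71.4%, LINC01881 with 67.6% and LINC01410 with 50.8%.

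Levels were low and uneven across the set. The mean CPM of the library total was 2.67 at the median and 40.2 at the top, 47 members lay under 2 CPM and 12 over 10 CPM. Just inside the threshold stood LINC01322 (1.0028 CPM), LINC01125 (1.005 CPM) and LINC01088 (1.0753 CPM), and just outside it LINC01719 (0.9985 CPM), LINC01694 (0.9666 CPM) and LINC01812 (0.9665 CPM). Of the 118, 26 had a mean under 1 CPM in at least 1 group, and 3 (LINC01125, LINC01322 and LINC01546) reached 1 CPM in only 1 group. The rule reaches some members through 1 group: without hypoxia shControl the mean of 7 would lie under 1 CPM (LINC01088, LINC01117, LINC01125, LINC01135, LINC01546, LINC01929 and LINC02551), and without 1 of the other groups that of LINC01322, LINC01399 or LINC02310. Comparisons of these members with the group that carries them are in part fixed by the rule and are given as a description. The abundance filter of the fit kept all 118. Levels below are CPM scaled with TMM factors, as mean ± SD with n = 3 libraries.

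The 6 most abundant members held 30% of the summed level. LINC00665, which has been reported to encode a micropeptide, was highest at a mean of 40.2 CPM over all libraries, followed by LINC01278 (35.3 CPM), LINC02474 (34.8 CPM), LINC01578 (32.1 CPM), LINC00839 (30.1 CPM) and LINC00888 (27.5 CPM). The order depended on the group: in normoxia shControl LINC02474 stood at 17.7 ± 0.721 CPM, below the other 5, and in hypoxia shRIPOR3 it led at 50.8 ± 2.71 CPM. Per kilobase of annotated exon LINC02474 ranked first, with 25.5 CPM per kilobase, and LINC00665 ranked 11, with 5.58 CPM per kilobase. LINC01578 and LINC01278 differed by less than their spread in normoxia shControl, at 35.0 ± 1.45 and 34.7 ± 3.75 CPM.

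The summed level of all 118 was lowest in normoxia shControl, at 604.4 ± 8.62 CPM. It was 678.9 ± 5.31 CPM in normoxia shRIPOR3, 679.8 ± 7.09 CPM in hypoxia shControl and 700.2 ± 6.11 CPM in hypoxia shRIPOR3, so that the library ranges of the middle 2 groups overlapped and those of the other groups did not. This overlap rested on the TMM factors: in CPM of the library total, normoxia shRIPOR3 had 643.2 to 654.9 and hypoxia shControl 691.6 to 716.1. Over single members, hypoxia shControl was the highest group for 48 and normoxia shControl the lowest for 47. The 48 include the 7 members that reach the level rule only through hypoxia shControl, whose order is in part fixed by the rule. The same shares over all genes tested are not given here. The highest group mean exceeded the lowest by 1.72-fold at the median member and by more than 2-fold in 37.

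In shControl cells, hypoxia raised more LINC transcripts than it lowered. Of 118 members 76 passed an adjusted p of 0.05 in edgeR's quasi-likelihood test, 56 higher and 20 lower. Among all 15648 genes tested 64.8% were called, 32.4% higher and 32.4% lower, so the members were called about as often as other genes (64.4%), with 47.5% higher and 16.9% lower. Over the 8226 tested genes in the members' range of mean CPM, 66.0% were called, 36.0% higher and 30.0% lower. That range bounds the members' levels without matching their distribution, as 47 of the 118 lie under 2 CPM and 12 over 10 CPM. The median log2 fold change was 0.25 in the members, 0.02 over all genes and 0.04 over genes in that range. All changes of at least 2-fold were increases, in 17 members, and the log2 values ran from -0.87 to 2.95. The share of all tested genes that changed at least 2-fold is not given, for this comparison or for those below. LINC01088, LINC01125, LINC01135, LINC01546, LINC01929 and LINC02551 are among the 17 and reach the level rule only through hypoxia shControl. Their increases are thus in part fixed by the rule. Whether the direction of the members differs from that of other genes was not tested.

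**Figure D1:**
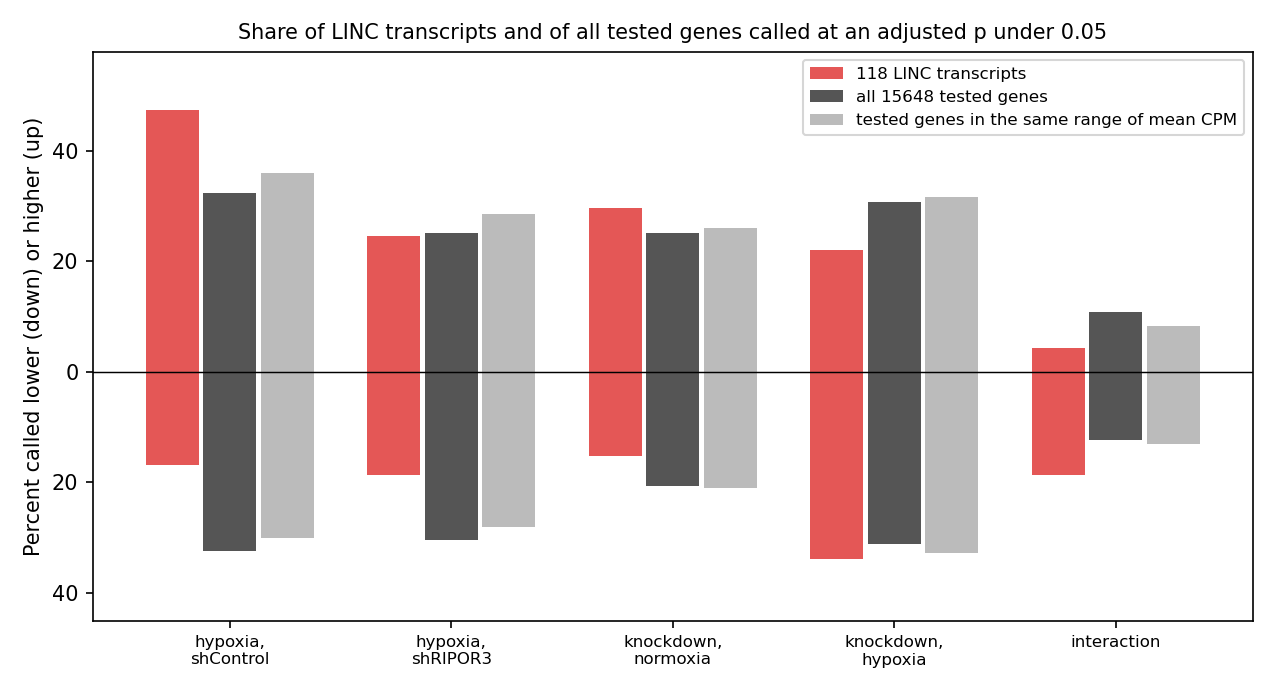
Share of the 118 LINC transcripts (red), of all 15648 tested genes (dark grey) and of the 8226 tested genes in the members' range of mean CPM (light grey) called higher (bars up) or lower (bars down) at an adjusted p under 0.05, in percent, for each of the 5 comparisons. For hypoxia in shControl, 47.5% of members were higher against 32.4% of all genes, and the total shares were 64.4% and 64.8%.

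Higher calls outnumbered lower ones among the weaker members, and lower calls higher ones among the 12 strongest. Of the 47 members between 1 and 2 CPM, 24 were higher and 2 lower in hypoxia in shControl, and of the 59 between 2 and 10 CPM, 28 were higher and 11 lower. Of the 12 members at 10 CPM and above, 4 were higher and 7 lower. The shares of all tested genes in these level classes are not given here. Whether the pattern is particular to LINC transcripts was thus not tested. Members whose mean reaches 1 CPM only through a high group have to differ between groups, and they lie in the weakest class. Among the 92 members with at least 1 CPM in each of the 4 groups, 58 were called, 40 higher and 18 lower. In the weakest class 23 of these 92 stood, 10 higher and 0 lower. Over the 110 members whose mean reaches 1 CPM in the 6 shRIPOR3 libraries alone, which this comparison does not use, 52 were higher and 20 lower.

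LINC00342, a lincRNA on the minus strand of chromosome 2 (95807118 to 95816215), gave the smallest p of all members. Its 3 normoxia shControl libraries stood at 2.37, 2.46 and 2.19 CPM, and its hypoxia shControl libraries at 15.2, 15.2 and 14.5 CPM. The groups lay far apart, with a log2 fold change of 2.69 ± 0.104 (6.46-fold, adjusted p = 1.23e-16), where ± marks the SE of a log2 value. In GENCODE 29, 48.0% of the gene's 31-base words recur in transcripts of 20 genes elsewhere, so that its reads may be shared with other copies. The nearest coding gene, ANKRD36C, a member of a family of near-identical ankyrin repeat genes, lies 20704 bases away on the same strand and rose by 1.27 ± 0.066 in the same comparison.

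LINC01293, beside LINC01291 on chromosome 2, had the largest log2 fold change of the set. LINC01293 (74940258 to 74942670) had 18, 11 and 21 counts in normoxia shControl, or 0.712, 0.772 and 0.754 CPM. In hypoxia shControl it had 227, 214 and 194 counts, or 5.53, 6.45 and 5.41 CPM, a log2 fold change of 2.95 ± 0.184 (adjusted p = 8.94e-13). LINC01291 (74918148 to 74938418) went from 0.776 ± 0.127 to 4.86 ± 0.533 CPM (2.59 ± 0.168). All hypoxia libraries of both exceeded all normoxia libraries of the same line. The nearest coding gene, POLE4, a small subunit of DNA polymerase epsilon, fell by 0.40 on the log2 scale.

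LINC02167, on chromosome 16 from 35743268 to 35756515, overlaps 14 other annotated genes and had 2.65, 3.37 and 3.20 CPM in normoxia shControl. In hypoxia shControl it had 10.6, 10.3 and 10.7 CPM, above all normoxia libraries (1.80 ± 0.104, adjusted p = 2.23e-13). LINC02310 was also among the largest increases (2.38 ± 0.318), from 0.277 ± 0.187 to 1.25 ± 0.189 CPM. It is named for its size, after its values were seen, and rested on 5, 7 and 4 counts in normoxia shControl.

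LINC00205 lies head to head with POFUT2, the gene of a protein O-fucosyltransferase, whose start is 152 bases away on the other strand of chromosome 21. It had 7.24, 6.38 and 7.33 CPM in normoxia shControl and 13.6, 13.0 and 13.4 CPM in hypoxia shControl. These groups did not overlap, and the log2 fold change was 0.92 ± 0.0762 (adjusted p = 1.66e-10), beside -0.07 ± 0.0604 for POFUT2 (adjusted p = 0.31). The RefSeq promoter window, 250 bases before to 50 after the annotated start (GRCh38.p14, chr21:45287802-45288101, plus strand), is shown because the start is shared with a coding gene that did not pass in this comparison. Capitals mark the letters ACGTG or GCGTG on either strand (CACGT or CACGC when read in reverse), the core letters of the hypoxia response element.
LINC00205 promoter: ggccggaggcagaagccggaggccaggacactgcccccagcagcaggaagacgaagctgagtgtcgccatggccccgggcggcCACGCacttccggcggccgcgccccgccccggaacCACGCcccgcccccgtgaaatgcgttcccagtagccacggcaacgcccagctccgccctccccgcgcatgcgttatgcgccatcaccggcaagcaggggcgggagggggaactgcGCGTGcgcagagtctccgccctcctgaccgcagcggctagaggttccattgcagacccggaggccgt

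The same letters were looked for in all promoters. Of the 88 members with a RefSeq promoter entry 43 held ACGTG or GCGTG on either strand (48.9%), beside 48.4% of all 35116 promoters of the same length. Of members higher in hypoxia in shControl 18 of 41 had a match (43.9%), of those lower 9 of 15 (60.0%), and of those not called 16 of 32 (50%). A match is a description of the letters, not of a bound site.

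Decreases were smaller. LINC02506, with no other annotated gene overlapping it on chromosome 4, had the smallest p, from 16.5, 18.2 and 16.2 CPM in normoxia shControl to 11.3, 11.8 and 11.3 CPM in hypoxia (log2 -0.55 ± 0.0618, adjusted p = 3.02e-08). LINC00857 went from 8.95 ± 1.04 to 5.14 ± 0.113 CPM (-0.82 ± 0.112), and its neighbour ANXA11, the annexin A11 gene 2138 bases away on the other strand, fell by 0.49 on the log2 scale. LINC00888 (-0.33 ± 0.0496), LINC00221 (-0.83 ± 0.143) and LINC01234 (-0.30 ± 0.0561) also fell. Replicates of LINC02506, LINC00857, LINC00888, LINC00221 and LINC01234 did not overlap between the groups.

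Of the 3 members that RefSeq lists as protein-coding, LINC00116 fell and the other two were higher in hypoxia. LINC00116 is MTLN, which encodes mitoregulin, a microprotein of the inner mitochondrial membrane. It went from 5.10, 6.31 and 5.93 CPM in normoxia shControl to 3.29, 3.67 and 3.93 CPM in hypoxia, without overlap (-0.66 ± 0.119, adjusted p = 3.47e-05). LINC00094, or BRD3OS, rose by 0.22 ± 0.0832 and its overlapping opposite-strand gene BRD3, a bromodomain protein gene, by 0.78 ± 0.0452. LINC01125, or C2orf92, had a log2 fold change of 1.67 ± 0.242, from 0.608 ± 0.204 CPM to 1.81 ± 0.0546 CPM, and belongs to the set only through hypoxia shControl.

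**Figure D2:**
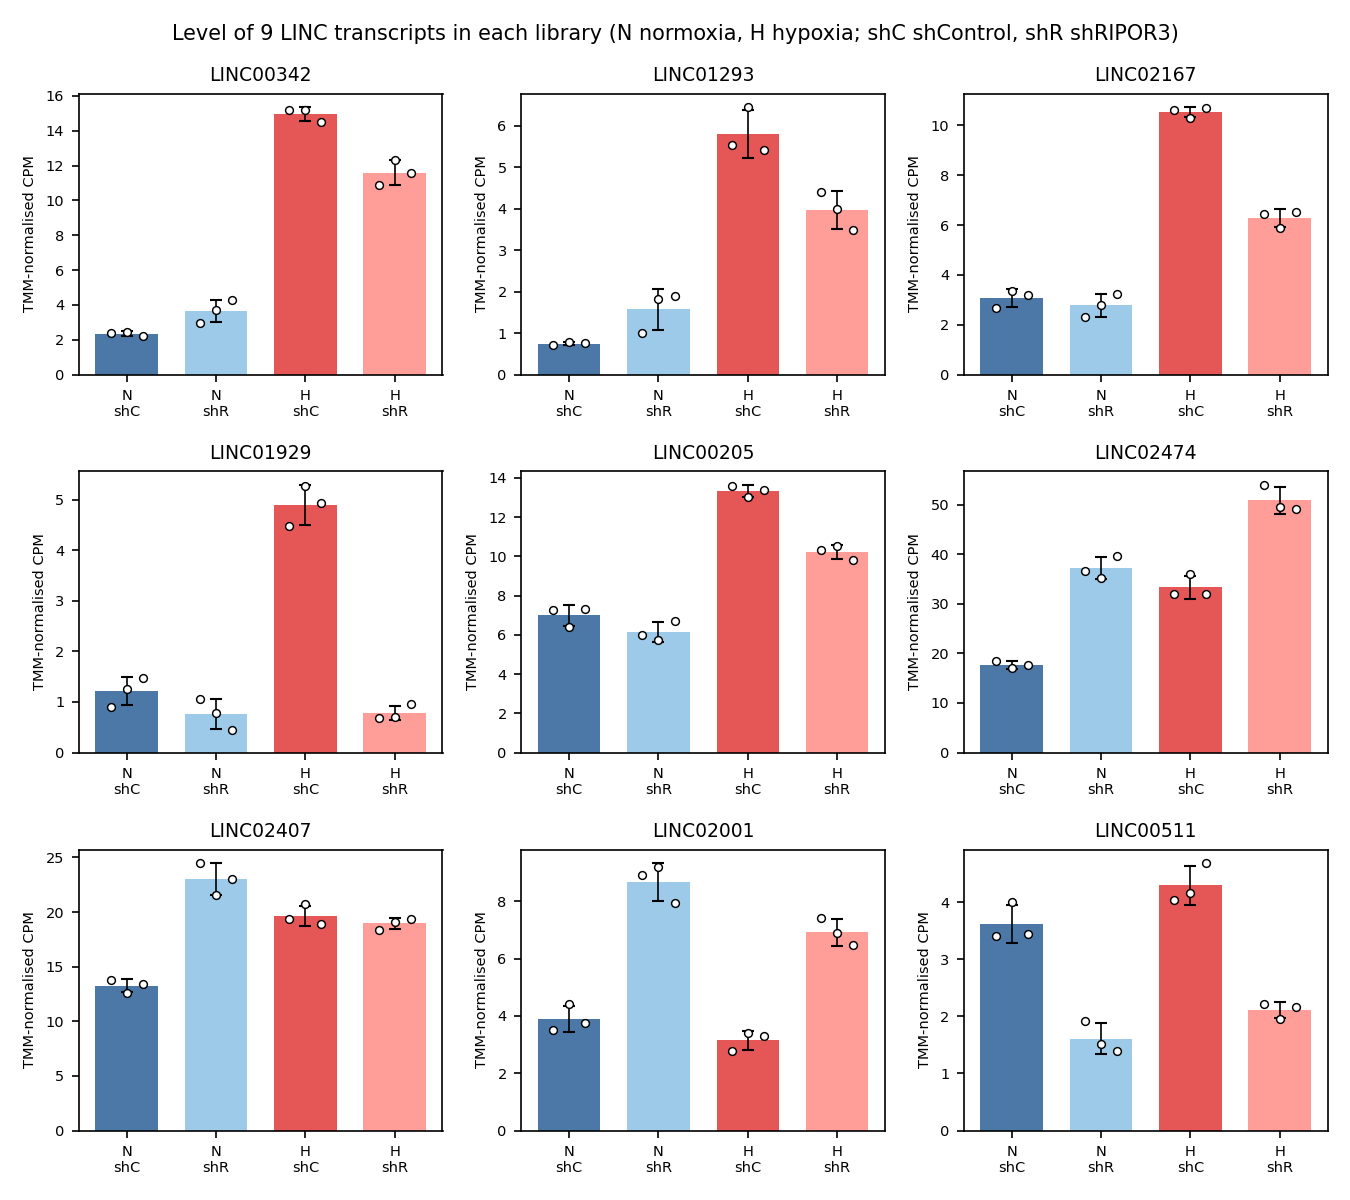
Level in TMM-normalised CPM of 9 LINC transcripts in the 12 libraries, by group (N normoxia, H hypoxia, shC shControl, shR shRIPOR3). Bars are means, error bars SD over 3 libraries and points single libraries. LINC00342 and LINC01293 are highest in hypoxia shControl, LINC01929 stands highest there as well, LINC02474 is highest in hypoxia shRIPOR3, and LINC02001 and LINC00511 separate by hairpin.

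In shRIPOR3 cells hypoxia raised 29 members, with the smallest p for LINC00342, and lowered 22. Of 118, 51 were called (43.2%), beside 55.6% of all genes tested, 25.2% higher and 30.4% lower, and beside 56.6% of genes in the range of mean CPM, 28.5% higher and 28.1% lower. The median log2 fold change was 0.12, against -0.01 over all genes, and 5 members rose at least 2-fold. Among these 5, LINC02310 (from 0.712 to 2.19 CPM) reaches the level rule only through hypoxia shRIPOR3. The split of 29 higher and 22 lower rested on scaling. When TMM factors were left out the all-gene median moved by 0.123 on the log2 scale. Then 43 members were higher and 13 lower (76.8% of the called instead of 56.9%). The same setting moved the share of higher calls over all genes from 45.3% to 63.4%. Among the 92 members at 1 CPM or more in every group, 21 were higher and 20 lower. In shControl the same setting moved the median by 0.11 and gave 61 members higher and 15 lower. With all libraries thinned to the smallest total, 13 members were lower in shRIPOR3, beside 3998 of all 13962 genes tested in that setting.

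The comparisons of hypoxia in the 2 lines share no library. All 29 members higher in shRIPOR3 were also higher in shControl, which is 51.8% of the 56 higher there, and in 24 of the 29 the log2 fold change was larger in shControl. Of the members that fell, 10 were lower in both, 50% of those in shControl and 45.5% of those in shRIPOR3. Over all genes tested 32.4% were higher in shControl and 25.2% in shRIPOR3. How far these all-gene calls overlap is not given here, so the overlap is a description of the members. LINC00342 rose from 3.65 ± 0.65 to 11.6 ± 0.717 CPM in shRIPOR3 (1.62 ± 0.0953), LINC02167 by 1.14 ± 0.111, LINC01293 by 1.26 ± 0.16 and LINC00205 by 0.71 ± 0.0795. LINC00565, now SWINGN, an RNA named for binding the SWI/SNF complex at the GAS6 locus, rose by 0.83 ± 0.107 in shRIPOR3 and by 1.03 ± 0.10 in shControl.

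Among the decreases in shRIPOR3 were LINC02506 (-0.42 ± 0.0603), LINC00973 (-0.47 ± 0.0747), LINC01224 (-0.40 ± 0.0889), LINC01234 (-0.25 ± 0.0545) and LINC01806 (-0.42 ± 0.0971). LINC01234 did not pass with library totals (adjusted p = 0.0576), nor LINC01806 with thinned libraries (adjusted p = 0.0917). LINC01224 had an adjusted p of 0.288 in shControl, at -0.12 ± 0.0971, and its interaction did not pass (adjusted p = 0.129).

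The RIPOR3 hairpin in normoxia raised 35 members and lowered 18. The 53 called are 44.9% of the set, beside 45.7% of all genes tested (25.1% higher, 20.6% lower) and 47.2% of those in the range of mean CPM (26.1% higher, 21.1% lower), and the median log2 fold change was 0.16 against 0.03 over all genes. At least 2-fold changes were 8 increases and 1 decrease. Among the 92 members at 1 CPM or more in every group, 30 were higher and 15 lower.

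LINC02474, a lincRNA of chromosome 1 (221966341 to 221984964), gave the smallest p. It went from 18.5, 17.0 and 17.6 CPM in normoxia shControl to 36.7, 35.3 and 39.6 CPM in normoxia shRIPOR3, a log2 fold change of 1.07 ± 0.0663 (2.10-fold, adjusted p = 3.33e-12). In hypoxia it went from 32.0, 36.0 and 32.0 CPM to 54.0, 49.5 and 49.1 CPM (0.61 ± 0.0514). The shRIPOR3 libraries were above the shControl libraries at both oxygen levels, without overlap.

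LINC02001, which RefSeq lists as the small nucleolar RNA host gene SNHG30, had 3.52, 4.42 and 3.74 CPM in normoxia shControl and 8.92, 9.19 and 7.94 CPM in normoxia shRIPOR3. The groups were far apart (1.18 ± 0.115), as they were in hypoxia (1.14 ± 0.0995), where shControl stood at 3.16 ± 0.334 and shRIPOR3 at 6.92 ± 0.47 CPM. Its promoter window (chr17:35567864-35568163, plus strand, capitals as above) holds the palindrome CACGTG, the E-box core, in which ACGTG reads on both strands.
LINC02001 promoter: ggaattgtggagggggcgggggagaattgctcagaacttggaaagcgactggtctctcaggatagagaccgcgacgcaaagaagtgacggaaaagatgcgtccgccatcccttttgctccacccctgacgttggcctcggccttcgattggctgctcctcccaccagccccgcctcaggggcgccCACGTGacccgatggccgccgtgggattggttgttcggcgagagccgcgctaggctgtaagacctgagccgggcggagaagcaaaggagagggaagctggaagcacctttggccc

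LINC00839 (0.63 ± 0.0507 in normoxia and 0.41 ± 0.0431 in hypoxia) and LINC01518 (0.64 ± 0.0814 and 0.96 ± 0.071), both near the zinc finger gene ZNF33B on chromosome 10, were higher in shRIPOR3 at both oxygen levels. ZNF33B did not pass in normoxia (0.10 ± 0.0748, adjusted p = 0.301) and fell by 0.31 in hypoxia. With the hairpin in hypoxia LINC01278, on the X chromosome, rose by 0.54 ± 0.0563, and in normoxia it did not pass (0.13 ± 0.0639, adjusted p = 0.0909). The body of LINC01278 overlaps the coding gene SPIN4 on the same strand, so its reads may be shared with that gene. LINC01419 rose by 0.89 ± 0.13 in normoxia and 1.05 ± 0.113 in hypoxia. LINC00973, near DCBLD2, rose by 0.48 ± 0.0828 and 0.37 ± 0.0748.

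LINC00472, on the minus strand of chromosome 6, contains the genes of miR-30a and miR-30c-2, members of a microRNA family. Its levels were 3.16, 4.49 and 3.48 CPM in normoxia shControl, 7.33, 6.95 and 6.05 CPM in normoxia shRIPOR3, 6.26, 5.66 and 6.28 CPM in hypoxia shControl and 9.99, 10.2 and 9.36 CPM in hypoxia shRIPOR3. It was called higher in all 4 comparisons, by hairpin in normoxia (0.89 ± 0.121) and hypoxia (0.69 ± 0.0834), and by hypoxia in shControl (0.76 ± 0.113) and shRIPOR3 (0.56 ± 0.0915). The mature sequences of the 5p arms from RefSeq, with the seed (bases 2 to 8) in capitals, show that both share 1 seed. The libraries here do not measure mature microRNAs.
hsa-miR-30a-5p: uGUAAACAuccucgacuggaag
hsa-miR-30c-5p: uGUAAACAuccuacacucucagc
Of the other members, LINC02486 holds miR-4453 on its own strand and LINC01588 holds miR-6076 on the other strand.

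LINC00511, a widely studied RNA of breast and other tumours on chromosome 17 (72290091 to 72640472), had the steepest fall with the hairpin in normoxia. It had 3.40, 4.0 and 3.45 CPM in normoxia shControl and 1.92, 1.51 and 1.40 CPM in normoxia shRIPOR3 (-1.19 ± 0.156, adjusted p = 1.07e-06). In hypoxia it had 4.04, 4.16 and 4.69 CPM in shControl and 2.21, 1.95 and 2.16 CPM in shRIPOR3 (-1.02 ± 0.11). All shRIPOR3 libraries lay below all shControl libraries. The promoter window (chr17:72640423-72640722, minus strand, capitals as above) is shown for this member as the strongest decrease in normoxia.
LINC00511 promoter: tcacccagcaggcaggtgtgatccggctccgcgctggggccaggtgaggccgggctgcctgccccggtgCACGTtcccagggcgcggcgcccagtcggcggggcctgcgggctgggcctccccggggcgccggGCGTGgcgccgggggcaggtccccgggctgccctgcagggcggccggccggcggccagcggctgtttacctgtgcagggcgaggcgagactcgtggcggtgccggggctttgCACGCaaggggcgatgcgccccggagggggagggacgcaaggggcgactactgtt

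LINC00261 (-0.61 ± 0.0923 in normoxia and -0.59 ± 0.0754 in hypoxia), known for its place beside the endoderm regulator gene FOXA2, fell at both oxygen levels, as did LINC00346, now PRECSIT, a p53-regulated RNA (-0.72 ± 0.132 and -0.68 ± 0.103). LINC00601 (-0.50 ± 0.0807 and -0.72 ± 0.0662) and LINC00704, or MANCR (-0.66 ± 0.116 and -1.10 ± 0.0921), fell as well. LINC01588 went from 5.19 ± 0.82 to 2.96 ± 0.0914 CPM in normoxia (-0.80 ± 0.14) and from 7.21 ± 0.548 to 3.18 ± 0.313 CPM in hypoxia (-1.18 ± 0.103). LINC00704 overlaps LINC00705 on the other strand, and the values of the 2 went apart in normoxia, where LINC00705 rose by 0.76 ± 0.218.

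With the hairpin in hypoxia lower calls outnumbered higher ones over the whole set, while the split was near even among members present in every group. Of 118 members 66 were called (55.9%), 26 higher and 40 lower, beside 61.9% of all genes tested, 30.7% higher and 31.2% lower, and beside 64.5% in the range of mean CPM, 31.6% higher and 32.8% lower. The median was -0.02, against 0.00 over all genes, and 4 members rose and 6 fell at least 2-fold. Those that fell include LINC01929 and LINC01125, which reach the level rule only through hypoxia shControl, so their falls are in part fixed by it. Of the 47 members between 1 and 2 CPM 18 were lower and 5 higher, and of the 12 at 10 CPM and above none was lower and 5 were higher. All-gene shares in these level classes are not given here. Among the 92 members with at least 1 CPM in every group, 23 were higher and 24 lower. The other 26 members gave 3 higher and 16 lower calls. Over the 106 members whose mean reaches 1 CPM in the 6 normoxia libraries alone, 25 were higher and 32 lower. The 2 hairpin comparisons share no library: 20 members were higher in both (57.1% of the 35 and 76.9% of the 26) and 14 lower in both (77.8% of the 18 and 35% of the 40). The same overlap over all genes tested is not given here.

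LINC01929, a lincRNA of chromosome 18 from 55105904 to 55124306, had the lowest log2 fold change. Its mean over the other 9 libraries was 0.906 CPM, so it belongs to the set only through hypoxia shControl, and its differences from that group are a description. It had 4.48, 5.27 and 4.94 CPM in hypoxia shControl, from 184, 175 and 177 counts, and 0.687, 0.705 and 0.951 CPM in hypoxia shRIPOR3, from 37, 26 and 52 counts. That is 6.16-fold lower with the RIPOR3 hairpin (-2.62 ± 0.159). In normoxia it had 0.910, 1.26 and 1.47 CPM in shControl and 1.06, 0.777 and 0.455 CPM in shRIPOR3, groups that overlapped, and it was called lower with the hairpin there as well (-0.78 ± 0.285, adjusted p = 0.0275). Hypoxia over normoxia was 2.00 ± 0.178 in shControl, while in shRIPOR3 it was 0.16 ± 0.274 (adjusted p = 0.64). Its nearest coding gene, the transcription factor gene TCF4, lies 98025 bases away and did not pass with the hairpin in hypoxia (0.03 ± 0.107, adjusted p = 0.849). The promoter window (chr18:55124257-55124556, minus strand) holds neither ACGTG nor GCGTG on either strand.
LINC01929 promoter: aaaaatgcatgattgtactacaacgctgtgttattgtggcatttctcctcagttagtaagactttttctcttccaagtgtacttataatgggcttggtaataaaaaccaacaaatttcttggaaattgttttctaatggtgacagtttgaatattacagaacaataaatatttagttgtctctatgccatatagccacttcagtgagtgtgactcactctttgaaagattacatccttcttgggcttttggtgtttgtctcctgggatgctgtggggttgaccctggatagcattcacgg

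LINC02167 had 6.45, 5.88 and 6.51 CPM in hypoxia shRIPOR3, below all hypoxia shControl libraries (-0.74 ± 0.0782), and LINC00205 fell by 0.39 on the log2 scale. LINC00702 fell by 0.62 with the hairpin in hypoxia and rose by 0.62 ± 0.0746 with hypoxia in shControl. Its nearest coding gene KLF6, which encodes a zinc finger factor and lies 415860 bases away, fell by 0.51 and rose by 0.61 ± 0.041 in the same comparisons. LINC01125, a member only through hypoxia shControl, was 1.81 ± 0.0546 CPM there and 0.862 ± 0.196 CPM in hypoxia shRIPOR3.

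**Figure D3:**
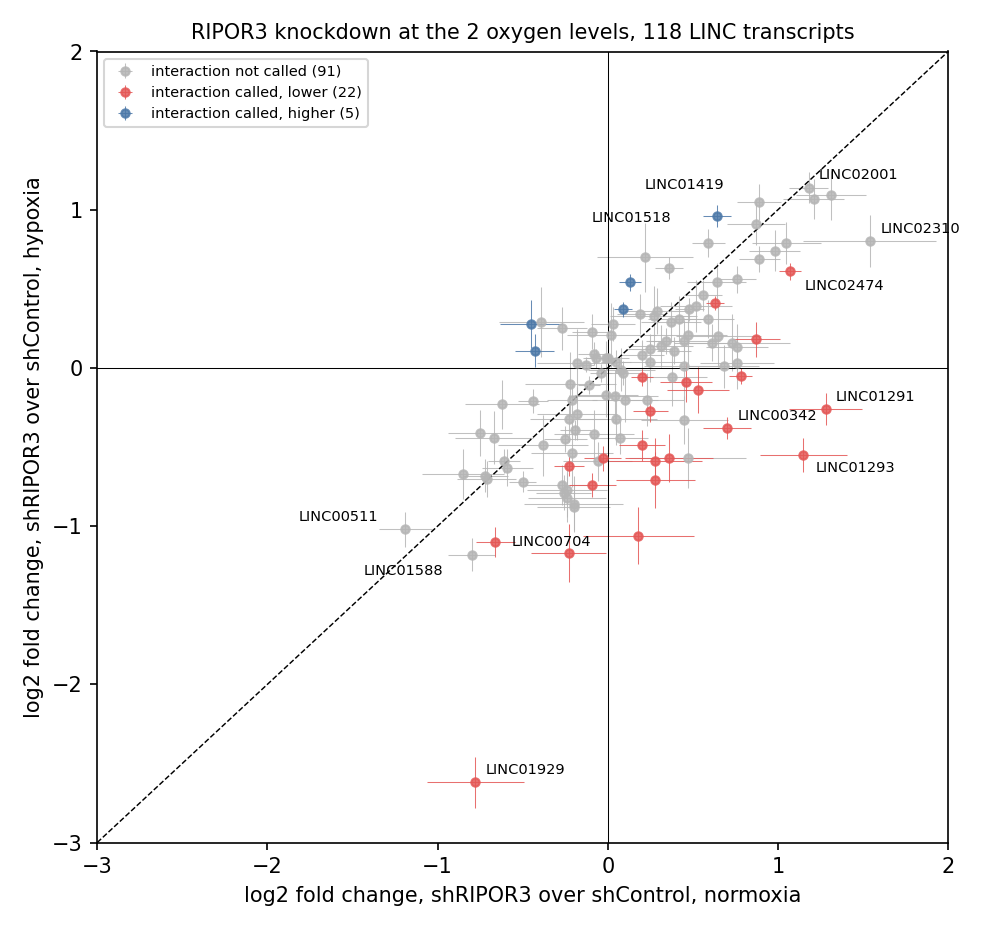
Log2 fold change of shRIPOR3 over shControl in normoxia (x axis) and in hypoxia (y axis) for the 118 LINC transcripts, with error bars of 1 SE and a dashed line of equal change. Colours give the interaction test. LINC01929 lies lowest at -2.62, LINC02001 and LINC00511 lie near the line, and LINC00342, LINC01291 and LINC01293 lie right of 0 and below 0.

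A set of 3 members moved in opposite directions with the hairpin at the 2 oxygen levels. The share of all tested genes that did so is not given here. LINC00342 rose by 0.70 ± 0.142 in normoxia and fell by 0.38 in hypoxia, LINC01293 rose by 1.15 ± 0.253 and fell by 0.55, and LINC01291 rose by 1.28 ± 0.216 and fell by 0.26. In normoxia shRIPOR3 LINC00342 had 2.97, 3.70 and 4.27 CPM, and in hypoxia shRIPOR3 10.9, 12.3 and 11.6 CPM. Both groups thus lay between the 2 shControl groups. LINC01293 had 0.991, 1.83 and 1.89 CPM in normoxia shRIPOR3 and 4.40, 3.98 and 3.49 CPM in hypoxia shRIPOR3, again between the shControl groups.

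The test of whether hypoxia changed a member differently in the 2 lines, the interaction, called 27 members (22.9%), 5 with a higher and 22 with a lower value in shRIPOR3. Of all genes tested 23.2% were called, 10.9% higher and 12.3% lower, and of those in the range of mean CPM 21.3%, 8.29% higher and 13.0% lower. The median interaction was -0.20, against -0.02 over all genes. DESeq2 called 17 members, beside 3233 of all 15648 genes, 1826 higher and 1407 lower. In edgeR 19 of the 92 members with at least 1 CPM in every group were called, 5 higher and 14 lower. The all-gene share at that level is not given here. The largest of the 27 were LINC01929 (-1.84 ± 0.351), LINC01293 (-1.70 ± 0.275), LINC01291 (-1.54 ± 0.239), LINC01125 (-1.25 ± 0.377) and LINC00342 (-1.08 ± 0.157). Of these, LINC01929 and LINC01125 belong to the set only through hypoxia shControl, one of the groups in the test.

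LINC02407, or LNCOG, had the smallest interaction p (-0.83 ± 0.0838, adjusted p = 1.59e-07). It had 13.8, 12.6 and 13.4 CPM in normoxia shControl, 24.5, 21.6 and 23.0 CPM in normoxia shRIPOR3, 19.4, 20.7 and 18.9 CPM in hypoxia shControl and 18.4, 19.1 and 19.4 CPM in hypoxia shRIPOR3. Hypoxia raised it in shControl (0.56 ± 0.0623) and lowered it in shRIPOR3 (-0.27 ± 0.056), and the 2 hypoxia groups overlapped. LINC00662 was the other member with opposite calls, at 0.40 ± 0.138 in shControl and -0.29 ± 0.116 in shRIPOR3.

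The 5 positive interactions were LINC01666 (0.74 ± 0.238), LINC00857 (0.53 ± 0.159), LINC01278 (0.40 ± 0.0852), LINC01518 (0.32 ± 0.109) and LINC00665 (0.28 ± 0.0728). LINC01278 stood at 28.1 ± 2.22 CPM in hypoxia shControl, below its other 3 groups at 34.7 ± 3.75, 37.6 ± 1.23 and 40.8 ± 0.501 CPM. LINC00665 likewise was lowest in hypoxia shControl, at 34.1 ± 1.77 CPM. The calls of LINC00857, LINC01666 and LINC01518 were lost with thinned libraries (adjusted p = 0.0669, 0.0956 and 0.167). LINC00857 also lost it without normoxia shControl replicate 3 (0.0593), normoxia shRIPOR3 replicate 3 (0.0627) or hypoxia shRIPOR3 replicate 1 (0.0517). LINC01666, whose normoxia shControl replicates were uneven at 2.61, 3.86 and 2.12 CPM, lost it without normoxia shControl replicate 2 (0.0727), normoxia shRIPOR3 replicate 3 (0.096), hypoxia shRIPOR3 replicate 1 (0.0559) or hypoxia shRIPOR3 replicate 3 (0.051). LINC01518 lost it without any of 7 libraries, normoxia shControl 1 or 2, normoxia shRIPOR3 1 or 2, hypoxia shControl 2, or hypoxia shRIPOR3 1 or 3, with an adjusted p of 0.0503 to 0.0775. It also lost it in DESeq2 (0.0598) and with no filter on low counts (0.0597).

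**Figure D4:**
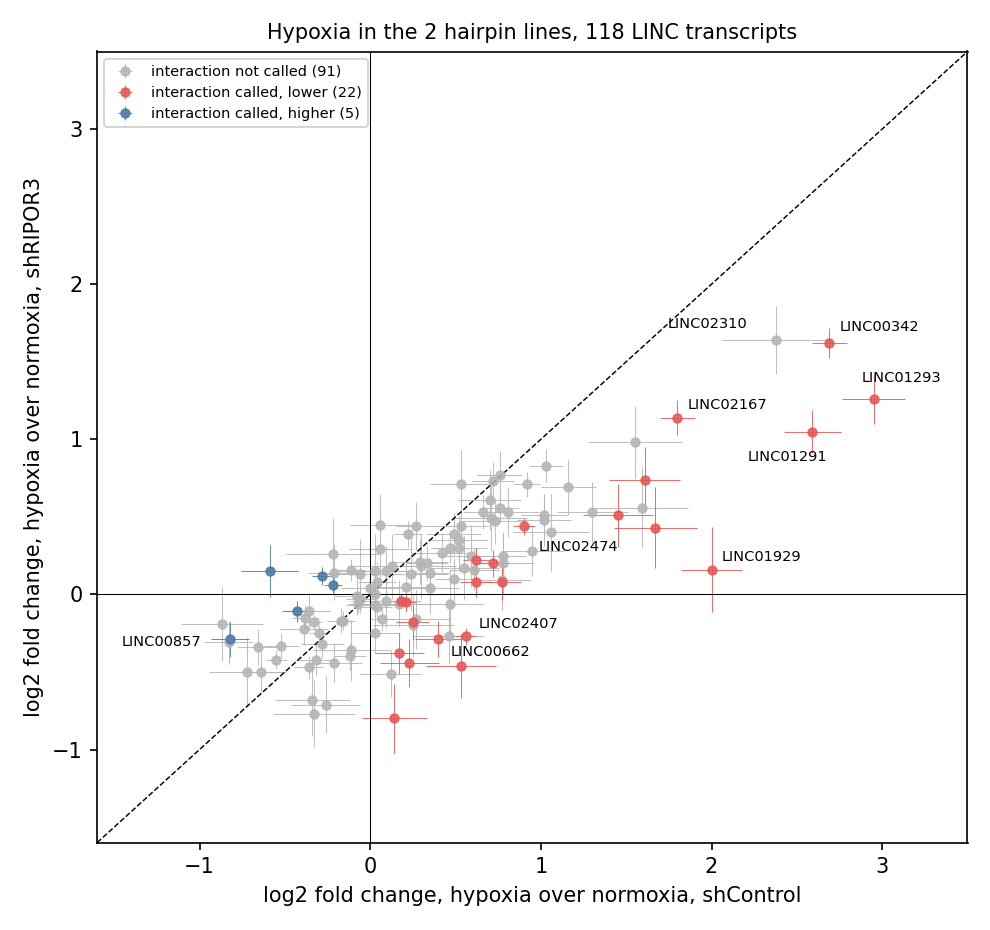
Log2 fold change of hypoxia over normoxia in shControl (x axis) and in shRIPOR3 (y axis) for the 118 LINC transcripts, with error bars of 1 SE and a dashed line of equal change. Colours give the interaction test, 22 lower (red), 5 higher (blue) and 91 not called (grey). LINC00342, LINC01291 and LINC01293 lie right of 2 and LINC01929 lies near 2, all below the line.

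Among members that passed in all 5 comparisons, LINC00342 and LINC01293 had the smallest p for hypoxia in shControl, and the genes most like them were looked up over the 12 libraries. The log2 levels of LINC00342 followed those of COL12A1 and BLCAP (Pearson's r = 0.994 for each) and LAMC1 (0.993). Those of LINC01293 followed ARHGAP22 (0.99), HIVEP1 (0.985) and AMIGO2 (0.985). These are descriptions over libraries that share 4 groups. Over the 4 pairwise comparisons, 14 members passed in none and 15 in all 4. How many of all genes tested did so is not given here, so these counts describe the members only.

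Where a member and its nearest coding gene were both called, pairs with 1 direction outnumbered opposite pairs in both hypoxia comparisons and for the hairpin in normoxia, and opposite pairs were more numerous for the hairpin in hypoxia. Of 78 pairs whose coding gene was tested, both were called in 41 for hypoxia in shControl, 18 both higher, 6 both lower and 17 in opposite directions. In shRIPOR3 28 pairs were both called, with 9, 8 and 11 in these classes. For the hairpin in normoxia the numbers were 16 pairs, with 7, 4 and 5, and in hypoxia 33 pairs, with 4, 8 and 21. For the 20 pairs that overlap or lie within 1 kb, 13 were both called for hypoxia in shControl, of which 9 were both higher, 1 both lower and 3 opposite. In shRIPOR3 6 of these close pairs were both called, 4 both higher and 2 opposite. For the hairpin 1 close pair was both called in normoxia, in opposite directions, and 6 in hypoxia, 2 both lower and 4 opposite. Of all genes tested 64.8%, 55.6%, 45.7% and 61.9% were called in these 4 comparisons. The close pairs include overlapping genes, whose reads cannot be assigned with certainty. They also include LINC01125 and LINC01135, members only through hypoxia shControl. How pairs of other neighbouring genes behave was not tested.

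A group of 8 members start head to head with a coding gene within 1000 bases, and 7 of these coding genes were the nearest gene and tested. These pairs are named as a whole, after their values were seen, first for hypoxia in shControl. LINC01135, now JUN-DT, had a log2 fold change of 1.30 ± 0.208 and JUN, a subunit of the AP-1 factor, rose by 1.08. LINC02486 rose by 0.49 ± 0.162 and FBXW7, a ubiquitin ligase subunit gene, by 0.76. LINC01560 rose by 0.53 ± 0.169 beside ZNF41 (0.38), and LINC01125 was higher beside ACTR1B (0.62). LINC01125 and LINC01135 reach the level rule only through hypoxia shControl. LINC01547 rose by 1.16 ± 0.161 while FAM207A fell by 0.28, and LINC01715 did not pass (0.06, adjusted p = 0.782) while TAF12, a TFIID subunit gene, fell by 0.45. LINC00205 and POFUT2 are given above.

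With the hairpin in normoxia LINC01715 fell by 0.62 while TAF12 rose by 0.82, and none of the other 6 pairs had both genes called. In hypoxia LINC01547 fell by 0.74 while FAM207A rose by 0.44, LINC02486 rose by 0.54 while FBXW7 fell by 0.19, and LINC01125 and ACTR1B were lower by log2 values of -1.06 and -0.66.

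Genes on a list of RNA decay factors mostly fell with hypoxia, and with the RIPOR3 hairpin more of them rose than fell. The list was made with earlier results of these data known. Of 27 genes of the RNA exosome, its adaptors and other RNA decay factors, 20 fell and 3 rose with hypoxia in shControl. Thus 74.1% were lower beside 32.4% of all genes, with a median of -0.37 against 0.02. In shRIPOR3 19 fell and 4 rose (70.4% lower beside 30.4%, median -0.26 against -0.01). The hairpin raised 14 and lowered 1 in normoxia (51.9% higher beside 25.1%, median 0.19 against 0.03), and raised 18 and lowered 4 in hypoxia (66.7% higher beside 30.7%, median 0.21 against 0.00). The interaction was called higher in 10 and lower in 2 (37.0% and 7.41%, beside 10.9% and 12.3%), with a median of 0.03 against -0.02. EXOSC1, an exosome core subunit, fell by 0.80 with hypoxia in shControl and rose by 0.64 ± 0.0453 with the hairpin in hypoxia, EXOSC7 fell by 0.74 and rose by 0.56 ± 0.0417, and PAPD7, a noncanonical poly(A) polymerase gene, rose by 1.22 ± 0.0445 with hypoxia in shControl. The part of RNA decay in the levels of the LINC transcripts was not tested.

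Long noncoding RNAs with other names also moved in both directions. Of 40 listed, 34 were tested, and 14 rose and 7 fell with hypoxia in shControl (41.2% and 20.6%, beside 32.4% and 32.4% of all genes). In shRIPOR3 10 rose and 8 fell (29.4% and 23.5%, beside 25.2% and 30.4%). The hairpin raised 17 and lowered 5 in normoxia (50% and 14.7%, beside 25.1% and 20.6%), and raised 13 and lowered 12 in hypoxia (38.2% and 35.3%, beside 30.7% and 31.2%). MALAT1, a nuclear speckle RNA, rose by 2.25 ± 0.0516 with hypoxia in shControl and by 1.57 ± 0.0506 in shRIPOR3, with an interaction of -0.68 ± 0.0725. NEAT1, the scaffold of paraspeckles, rose by 1.73 ± 0.0638 and 1.14 ± 0.062. The host genes SNHG1 and GAS5 rose with the hairpin by 0.99 ± 0.0415 and 1.23 ± 0.0385 in normoxia and by 1.29 ± 0.0392 and 1.23 ± 0.038 in hypoxia.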

How the data were processed

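The authors deposited raw counts per gene symbol, 1 column for each of the 12 libraries. Per the labels, 2 µg of RNA went into each stranded library. Tools named in the submitters' processing notes are STAR 2.5.3a, fastp 0.23.4 and featureCounts, with the build GRCh38. Their roles, the annotation and the strand setting are not stated there. The model was fitted with edgeR 4.0.16 under R 4.3.3 (limma 3.58.1), with 1 coefficient per group over all libraries, filterByExpr (15648 genes left), TMM scaling (factors 0.9517 to 1.048) and quasi-likelihood F-tests, with p-values adjusted by Benjamini and Hochberg over all tested genes and a threshold of 0.05. The biological coefficient of variation was 3.74%, and library totals from 14750734 to 52526813 counts bound the precision of weak members. Replicates differed beyond sampling noise in every pair (chi-square per degree of freedom 2.49 to 5.62).

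The members and the gene lists were chosen with earlier results of these data known. Named members are the 6 most abundant, up to 6 with the smallest p in each direction of each comparison, those at the threshold, those RefSeq lists as protein-coding, and the nearest coding genes of all these; likeness used log2 CPM with a prior count of 1. From the RNA decay and other lncRNA lists up to 3 genes with the smallest p per comparison could be named. The other marker lists were endothelium (3 genes, 1 under 1 CPM in every group, summed level 2.24 to 13.6 CPM, higher in shControl) and fibroblasts (4 genes, 2 under 1 CPM, 3.63 to 12.2 CPM). Their part in the results was not tested. Positions come from GENCODE 29 (GRCh38), and promoters and microRNAs from RefSeq (GRCh38.p14). Alternatives were DESeq2 1.42.0, 3 other scalings, other filters, only the 2 groups compared, a replicate block, a threshold of 0.01, thinning to 14750734 counts, leaving out each library and other membership rules. The pipeline was tested on simulated data. Sequences and figures were handled in Python 3.11.15 (matplotlib 3.10.9, pandas 2.3.3, NumPy 2.4.6).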

Additional observations from a re-analysis of the deposited data

Results flagged for a closer look

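For 11 named members the response to hypoxia differed between the 2 hairpin lines by the interaction test in edgeR, given as the log2 fold change of hypoxia in shRIPOR3 minus that in shControl. The response was lower in shRIPOR3 for LINC01929 (-1.84), LINC01293 (-1.70), LINC01291 (-1.54), LINC00342 (-1.08), LINC02407 (-0.83) and LINC02474 (-0.46). It was higher in shRIPOR3 for LINC01666 (0.74), LINC00857 (0.53), LINC01278 (0.40), LINC01518 (0.32) and LINC00665 (0.28). LINC01929 reaches the level rule only through hypoxia shControl, a group in this test, and was called lower with the hairpin in both normoxia and hypoxia. LINC01291 and LINC01293 lie side by side and may be 1 transcription unit.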

How the results depend on the processing

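No value reversed. Over the named members, 1263 of 1287 repeats kept direction and call, and 24 kept the direction but not the call; these touch 5 results, LINC01234 and LINC01806 for hypoxia in shRIPOR3 and the interactions of LINC00857, LINC01666 and LINC01518. Counts of called members moved by over 1.5 times where fewer members were counted: among the 71 with a mean of at least 2 CPM, 50 were called for hypoxia in shControl and 43 for the hairpin in hypoxia, and among the 42 that overlap no annotated gene the 5 counts were 27, 18, 21, 24 and 12. For the interaction DESeq2 called 17, beside 3233 of all 15648 genes, and a threshold of 0.01 left 13. Leaving out 1 library gave 67 to 78, 40 to 57, 45 to 52, 58 to 68 and 20 to 25 calls, against 76, 51, 53, 66 and 27. All-gene counts for leaving out 1 library and for the threshold of 0.01 are not given here. The number of members with a higher interaction went from 5 to 3 without normoxia shRIPOR3 replicate 3 or hypoxia shRIPOR3 replicate 3 and to 2 without hypoxia shRIPOR3 replicate 1. Same-numbered libraries did not deviate together (median r 0.00047 over 18 pairs, from -0.0183 to 0.0265), and with a replicate block the counts were 76, 53, 52, 68 and 29. With that block 10113, 8664, 7119, 9694 and 3596 of all 15648 genes were called. The membership without LINC01293, which RefSeq merges with LINC01291, was chosen after seeing the data and gave 75, 50, 52, 65 and 26. Membership by the mean CPM in the 6 libraries outside each pairwise comparison, also chosen after seeing the data, gave 72, 50, 53 and 57. Depth limits the weaker members, and 6 members had under 10 counts in some library. Among the 6 is LINC01291 (mean 2.98 CPM), with 22, 9 and 23 counts in normoxia shControl. With all libraries thinned to 1 total the numbers of called members were 66, 38, 44, 56 and 18. Of all 13962 genes tested in that setting 8731, 7376, 6235, 7863 and 2678 were called.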

Other observations

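Members outside the naming rule, chosen here after their values were seen because they changed at least 2-fold, add the following. With hypoxia in shControl LINC01088 (log2 1.59), LINC02551 (1.61), LINC01537 (1.55), LINC00886 (1.45), LINC01546 (1.06), LINC00863 (1.02) and LINC02035 (1.02) were higher. LINC01088, LINC02551 and LINC01546 have means of 0.824, 0.938 and 0.847 CPM without hypoxia shControl, so they are members only through the group in which they are high, and their values are a description. With the RIPOR3 hairpin LINC01123 rose in normoxia (1.31) and in hypoxia (1.09), and 95.2% of its 31-base words occur in transcripts of other genes. LINC02273 rose likewise (1.21 and 1.07), LINC02231 rose in normoxia (1.05), and LINC02057 fell by 1.17 in hypoxia. Of the neighbouring member pairs, LINC00452 and LINC00565, 3002 bases apart on opposite strands of chromosome 13, had log2 fold changes of 0.72 and 1.03 with hypoxia in shControl and 0.73 and 0.83 in shRIPOR3.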
